A study of Mus musculus with 112 samples.

Results

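The clustered protocadherins are cell-surface adhesion proteins encoded by tandem arrays of variable exons. The genes whose symbols read Pcdha, Pcdhb, Pcdhga, Pcdhgb, Pcdhgc or Pcdhac followed by a number were taken, which gave 58 of the 25209 genes in the count tables. They comprised 14 genes of the alpha cluster, 22 of the beta cluster and 22 of the gamma cluster, the last made up of 12 A, 7 B and 3 C isoforms. All 58 lie on the + strand of mouse chromosome 18 (mm9), between positions 37089939 and 38001526. Pcdhgb3 was not analysed here.

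In the alpha and gamma clusters, each variable exon has a promoter of its own and is spliced to constant exons shared by the whole cluster, whereas each beta gene is a single exon. Neurons switch on a small, largely random set of these promoters through looping by CTCF and cohesin, and the resulting combination gives each cell a surface identity that homophilic binding reads out, for instance when branches of one neuron avoid each other. The C-type isoforms (Pcdhac1, Pcdhac2, Pcdhgc3, Pcdhgc4 and Pcdhgc5) sit at the 3′ end of their clusters and are expressed more uniformly. Silent promoters carry DNA methylation and H3K9 methylation, and SMCHD1 holds the clusters repressed.

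RNA-seq of rRNA-depleted total RNA was collected from 112 libraries of mouse V6.5 embryonic stem cells (ESCs) and their derivatives, in 34 groups, to ask how far the histone demethylase LSD1 acts without its catalytic activity. The cultures were ESCs kept naive with MEK and GSK inhibitors plus LIF, embryoid bodies (EBs) after 6 days as hanging drops, cells left to differentiate for 4 days in serum without the inhibitors and LIF (FBS), and epiblast-like cells (EpiLCs) after 2 days with Activin A and FGF2. LSD1 KO cells lack the promoter and first exon of Kdm1a, LSD1 CI cells carry a catalytically inactive LSD1 at about normal protein level. The CoREST scaffold proteins that hold LSD1 were deleted singly (RCOR1 KO, RCOR2 KO) or jointly in RCOR1/2 DKO cells, where LSD1 protein is also low. MLL4 KO cells lack the H3K4 methyltransferase MLL4 (Kmt2d), which was also deleted in LSD1 KO cells (MLL4/LSD1 DKO) and in LSD1 CI cells (MLL4KO/LSD1CI). A485, an inhibitor of the acetyltransferases p300 and CBP, was given to LSD1 KO cells only, with DMSO as the solvent control. EBs received it at a lower concentration than ESCs, and during differentiation. All FBS and EpiLC libraries carried DMSO or A485. In the DOX lines, doxycycline switches on a tagged LSD1 in LSD1 KO ESCs (LSD1Res) or in RCOR1/2 DKO ESCs. Mutant lines are picked CRISPR clones, the labels tie no library to a clone, and p-values measure the spread between libraries only.

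Depth ran from 17.2e6 to 58.2e6 counts per library, so that 1 count was worth between 0.0182 and 0.0616 CPM (counts scaled to library size). Kdm1a stood at 3.05 to 9.76 CPM in the LSD1-deleted ESC groups of the genotype comparison (LSD1 KO and MLL4/LSD1 DKO), against 158 to 235 CPM in WT ESCs. In RCOR2 KO EBs Rcor2 still stood at 41.1 to 48.3 CPM, against 116 to 142 CPM in WT EBs, and Kmt2d in MLL4 KO ESCs stood at 217 to 226 CPM, against 307 to 837 CPM in WT ESCs. The count files of 9 ESC libraries (WT replicates 1 to 3 and all 6 LSD1 KO) held no count on unplaced contigs, unlike the other 103, and this alignment difference was a term of every fit that held them.

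Where a read falls decides what can be seen of these genes. Reads in the 3 constant exons match every isoform of a cluster and were not assigned to a gene, so a count stems from the variable exon in nearly all members. Pcdha4 and Pcdha7 had 0 bases of their own, because the annotation holds overlapping transcripts (Gm37013 and Gm38667), and were at 0 in every library. The remaining members had between 1240 unique exonic bases (Pcdha6, 1234 of them in its last constant exon) and 5270 (Pcdhb16). The variable exon of each downstream isoform also lies in the introns of those upstream on the same strand: Pcdhga1, the first of the gamma cluster, is spanned by 0 of them, Pcdhgc3 by 19 and Pcdhgc5 by 21. In rRNA-depleted total RNA, unspliced RNA of upstream isoforms and mature RNA of the isoform itself cannot be told apart, nor can fewer expressing cells and less RNA per cell.

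The gamma cluster was the expressed one. In WT ESCs its summed level was 90.1 ± 16.3 CPM (SD, n = 11), against 0.470 ± 0.190 CPM for the alpha and 0.580 ± 0.430 CPM for the beta cluster. At least 10 counts in every WT ESC library were reached by 21 gamma members, 0 alpha members and 0 beta members, and 3 alpha and 4 beta members were at 0 in all of these libraries. Per unique kilobase, Pcdhgc3 led with 7.34 ± 2.01 CPM per kb (SD, n = 11), followed by Pcdhga8 with 3.15 and Pcdhga1 with 2.77 CPM per kb. Pcdhga8 and Pcdhga1 were within 1 SD of each other. The leading alpha member, Pcdha12, reached 0.0675 CPM per kb and the leading beta member, Pcdhb22, reached 0.0558 CPM per kb, and both ranges included 0.

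Differentiation into EBs raised most of the family. Of the 44 members that passed the filter on low counts in the comparison of WT cultures, 33 were higher and 1 lower in EBs than in ESCs (edgeR's quasi-likelihood F test with Benjamini-Hochberg adjustment over all genes; a call needs an adjusted p under 0.01 and a log2 fold change beyond 1 in size). Of all genes tested, 35.5% were called, 21.2% as higher and 14.3% as lower. The called higher members were 8 of 11 alpha, 9 of 11 beta and 16 of 22 gamma genes, and the median log2 fold change was 3.94, 4.21 and 1.53 for these clusters, against 0.07 over all genes. A member silent in ESCs passed the filter only through a culture where it is higher, so the alpha and beta shares carry no weight of their own. All 14 alpha and 22 beta members together, tested or not, summed to 6.62 ± 2.89 and 10.96 ± 6.19 CPM in WT EBs (SD, n = 7).

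Pcdhgc3 showed the largest absolute gain. Its level in the 7 WT EB libraries ranged from 50.1 through a median of 69.2 to 90.3 CPM, against 9.47, 18.6 and 27.5 CPM for the lowest, median and highest of 11 WT ESC libraries. The ranges did not overlap, and replicates 10 and 11 of WT ESCs were the lowest (9.47 and 12.1 CPM). The log2 fold change was 1.99 (SE 0.18, edgeR adjusted p = 1.98e-09), and Pcdhgc3 made up 31.3 ± 2.3% of the gamma sum in EBs, against 21.1 ± 5.1% in ESCs. Pcdhac2, the alpha C-type isoform that serotonergic neurons use in the mouse, stood at 1.21 to 5.31 CPM (median 3.70) in WT EBs, against 0 to 0.354 CPM (median 0.109) in WT ESCs. It was higher in every EB library than in any ESC library (log2 fold change 4.47, SE 0.556, edgeR adjusted p = 2.95e-07). Near 0 in ESCs, Pcdhac2 passed the filter on low counts mainly through cultures where it is higher, so this call carries no weight of its own.

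By fold change, A and B isoforms in the middle of the gamma array gained most within that cluster. Pcdhga7 ranged from 6.05 to 14.0 CPM (median 10.5) in WT EBs, against 0.944 to 2.83 CPM (median 1.74) in WT ESCs, with no overlap (log2 fold change 2.78, SE 0.25, edgeR adjusted p = 1.79e-09). Pcdhga6 ranged from 2.44 to 6.30 CPM (median 4.49) in WT EBs, against 0.145 to 0.9 CPM (median 0.553) in WT ESCs, again apart (log2 fold change 3.12, SE 0.432, edgeR adjusted p = 1.38e-06). The remaining C-type members were also higher in every EB library than in any ESC library, at log2 fold changes of 1.28 for Pcdhgc4, 1.34 for Pcdhgc5 and 3.83 for Pcdhac1, although Pcdhac1 did not exceed 0.597 CPM. Pcdhac1 could pass the filter on low counts only through a culture where it is higher, so its rise carries no weight of its own.

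In the beta cluster the levels in EBs were highest at the 3′ end, where Pcdhb22, Pcdhb21 and Pcdhb19 led per unique kilobase. Pcdhb22 ranged from 1.48 to 7.23 CPM (median 3.58) in WT EBs, against 0 to 0.436 CPM (median 0.109) in WT ESCs, without overlap (log2 fold change 5.11, SE 0.655, edgeR adjusted p = 4.59e-07). Pcdhb19 ranged from 0.314 to 3.38 CPM (median 1.02) in WT EBs and from 0 to 0.163 CPM in WT ESCs, where it was at 0 in most libraries (log2 fold change 5.55, SE 0.906, edgeR adjusted p = 1.87e-05). The largest fitted fold change of the family, 6.25 on the log2 scale for Pcdha1, belonged to a gene that reached 0.422 CPM at most in EBs and was at 0 in 1 EB library. Pcdhb19 and Pcdha1, near 0 in ESCs, could pass the filter on low counts only through a culture where they are higher. Their calls carry no weight of their own.

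The one member called lower in EBs was the first of the gamma array. Pcdhga1 ranged from 1.58 to 2.57 CPM (median 2.09) in WT EBs, against 4.76 to 10.2 CPM (median 6.78) in WT ESCs, with no overlap. The log2 fold change was -1.73 (SE 0.181, edgeR adjusted p = 2.23e-08). The members next to it, Pcdhga2 and Pcdhga3 (chosen after their values were seen), had log2 fold changes of 0.79 and 0.98 in the same comparison, short of the call.

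**Figure D1:**
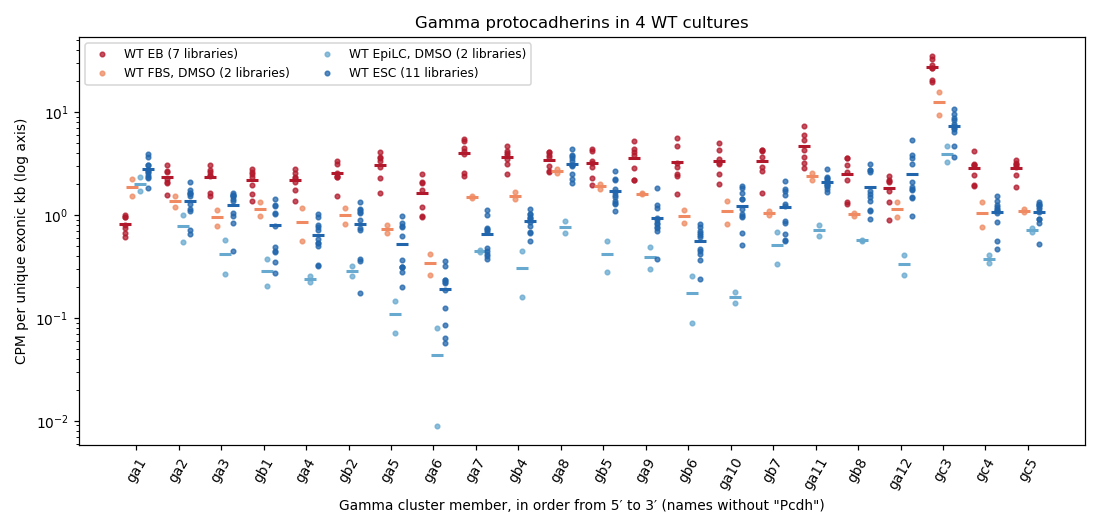
Level of each gamma member in WT cells of the 4 cultures, in CPM per unique exonic kilobase on a log axis, with members in genomic order; points are libraries (7 EB, 2 FBS, 2 EpiLC, 11 ESC) and dashes are group means. Pcdhgc3 is the highest member in every culture (mean 27.1 CPM per kb in EBs and 7.34 in ESCs), Pcdhga1 is lower in EBs than in ESCs, and every member's mean is lower in EpiLCs than in ESCs.

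In EpiLCs the gamma cluster went down. All 22 gamma members had a log2 fold change below 0 against WT ESCs, with a median of -1.46 (all genes -0.04), and 10 were called lower. In the beta cluster 2 were called higher, Pcdhb20 and Pcdhb16, which gave 12 called members of 44, while 15.9% of all genes were called (8.51% higher, 7.43% lower). These beta members, near 0 in ESCs, could pass the filter only through a culture where they are higher, so their calls carry no weight of their own. The gamma sum stood at 34.9 and 37.5 CPM in the 2 WT EpiLC libraries, below the 63.9 to 112 CPM of the WT ESC libraries. Pcdhga12 showed the largest drop, with 0.770 and 1.21 CPM in EpiLCs, against 2.86 to 15.9 CPM in ESCs (log2 fold change -3.06, SE 0.554, edgeR adjusted p = 0.000163). Without WT EpiLC replicate 1, 4 members were called, and without replicate 2, 6 were called.

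FBS cells lay close to ESCs in the gamma sum, with 91.8 and 114 CPM. In these cells 8 of 44 members were called higher and 0 lower, a share near that of all genes (20.0%, with 12.2% higher and 7.8% lower). The 8 included 5 alpha members, among them Pcdhac2 at 1.37 and 1.72 CPM (log2 fold change 3.36, SE 0.666, edgeR adjusted p = 0.00034). Alpha and beta members near 0 in ESCs could pass the filter on low counts only through a culture where they are higher. Their calls in FBS cells therefore carry no weight of their own. Pcdhgc3 stood at 24.2 and 39.9 CPM (log2 fold change 0.87, adjusted p = 0.00896), overlapping the WT ESC range and short of the call. Without WT FBS replicate 1, 4 members were called, and without replicate 2 only 1. WT ESC libraries received no DMSO, so culture and solvent cannot be told apart in the EpiLC and FBS comparisons, which also share their WT ESC controls with the EB comparison.

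Of 25 genes listed for promoter choice and silencing (CTCF, cohesin, SMCHD1, DNA and H3K9 methyltransferases, REST and others), 2 were called higher and 3 lower in WT EBs than in ESCs, a smaller share than the 35.5% of all genes called there. Among them were Dnmt3b, which places DNA methylation de novo (log2 fold change 1.42), and Rest, a repressor of neuronal genes (log2 fold change -1.54). In EpiLCs Dnmt3a and Dnmt3b were higher, by 3.88 and 4.04 on the log2 scale. They are examples from the list, whose count of calls in EpiLCs is not given here. Of the delta protocadherins, which lie outside the clusters, 10 of 11 tested were called higher and 1 lower in EBs, and 7 higher and 1 lower in EpiLCs, where 15.9% of all genes were called. Of 8 classical cadherins 6 were called higher and 1 lower in EBs, and of 16 protein partners of protocadherins 3 were called higher and 0 lower. Cell makeup changed along with these levels: the pluripotency markers were all lower in EBs (8 of 8 called), and 8 of 9 mesoderm and 7 of 7 endoderm markers were higher. Counts for the neuronal and neural progenitor lists are not given here, and the part of cell makeup in the protocadherin levels was not tested.

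In the genotype comparison, LSD1 KO ESCs had lower levels of the gamma cluster than WT ESCs. Of the 35 members tested in the ESC genotypes, 0 were called higher and 13 lower than in WT ESCs, all of them gamma genes, while 13.3% of all genes were called (7.56% higher, 5.74% lower). All 22 gamma members had a log2 fold change below 0, with a median of -1.03 (all genes 0.00). The gamma sum was 50.3 ± 2.1 CPM in LSD1 KO ESCs (SD, n = 6), ranging from 46.5 to 52.2 CPM, against 63.9 to 112 CPM in WT ESCs. Other LSD1-deleted ESCs, outside this comparison, lay partly inside the WT range: 66.03 and 66.12 CPM with DMSO, and 66.47 to 74.95 CPM in LSD1Res without DOX. LSD1 KO ESCs of the DOX set lay below it, at 38.95 and 44.0 CPM without DOX and 42.84 and 48.47 CPM with DOX. The alpha and beta members stayed near 0 in both genotypes.

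Pcdhgb5 had the largest fold change of the called members. It stood at 1.39 to 3.05 CPM in LSD1 KO ESCs, against 2.84 to 6.89 CPM in WT ESCs, with a small overlap (log2 fold change -1.74, SE 0.238, edgeR adjusted p = 1.44e-07). Pcdhga8 ranged from 2.97 to 4.70 CPM in LSD1 KO, against 5.38 to 11.5 CPM in WT, without overlap (log2 fold change -1.46, SE 0.219, edgeR adjusted p = 8.01e-07). Pcdhgc3 ranged from 9.65 to 11.9 CPM in LSD1 KO, against 9.47 to 27.5 CPM in WT. Its ranges overlapped through WT replicate 10 alone, and against the 3 WT libraries aligned like the KO libraries (19.7 to 27.5 CPM) they did not overlap (log2 fold change -1.11, SE 0.184, edgeR adjusted p = 4.56e-06). Against those 3 WT libraries alone 9 members were called, and with DESeq2 size factors, or with the compared groups only, 8 instead of 13. Pcdhga5, at 0.661 to 1.47 CPM in LSD1 KO, overlapped the 11 WT libraries (0.504 to 2.50 CPM) but not the 3 aligned alike (1.94 to 2.50 CPM), and its call rests on the alignment term.

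The catalytic mutant gave no call. In LSD1 CI ESCs edgeR called 0 of 35 members, beside 3.91% of all genes (1.78% higher, 2.13% lower), 4 reached an unadjusted p below 0.05, and DESeq2 called 0. The gamma median was -0.20. LSD1 KO against LSD1 CI, the direct test, gave 0 of 35 members higher and 3 lower, a share near that of all genes (8.8%, with 4.68% higher and 4.12% lower). The 3 were Pcdhgb5, Pcdhga8 and Pcdhga2, at log2 fold changes of -1.54, -1.26 and -1.21. For Pcdhgb5 the levels were 1.39 to 3.05 CPM in LSD1 KO and 2.66 to 4.40 CPM in LSD1 CI, and for Pcdhga8 2.97 to 4.70 CPM in LSD1 KO and 5.29 to 8.29 CPM in LSD1 CI. Both comparisons share the LSD1 KO libraries. The LSD1 KO and LSD1 CI libraries differ in alignment, so the alignment term in this comparison comes from the WT libraries, which hold both kinds.

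Of the CoREST mutants, RCOR1/2 DKO was the one in which edgeR called members in ESCs. In RCOR1 KO ESCs 0 members were called by edgeR (0.0227% of all genes, 0.0114% in each direction), 13 reached an unadjusted p below 0.05, DESeq2 called 1, and 21 of 22 gamma members had a log2 fold change below 0 (median -0.52). The gamma sum was 59.8 to 70.3 CPM in RCOR1 KO and 58.1 to 63.2 CPM in RCOR1/2 DKO ESCs. WT replicates 8 and 9, listed beside these libraries in the series, had the lowest WT sums, at 72.2 and 63.9 CPM. The fits pooled all 11 WT libraries (up to 112 CPM), and an effect of library set was not tested. In RCOR2 KO ESCs edgeR called 0 members (4.3% of all genes, 2.49% higher and 1.81% lower), 3 reached an unadjusted p below 0.05, DESeq2 called 0, and the gamma median was 0.22. In RCOR1/2 DKO ESCs 4 of 35 members, all gamma, were called lower and 0 higher. This is a smaller share than the 18.3% of all genes called either way (10.6% higher, 7.65% lower). The 4 were Pcdhga8, Pcdhga12, Pcdhgb8 and Pcdhgc4. Pcdhga8 stood at 2.64, 1.57, 2.21 and 2.03 CPM in the DKO libraries, all below the 5.38 to 11.5 CPM of the WT libraries (log2 fold change -1.88, SE 0.218, edgeR adjusted p = 2.57e-09). Without WT ESC replicates 10 and 11, a choice made after seeing the data, 1 of the 4 was called.

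Pcdhga8 was also the sole member called on LSD1 re-expression. In LSD1Res ESCs it stood at 5.51, 4.90, 7.04 and 9.05 CPM with DOX, against 2.47, 2.76, 3.57 and 2.40 CPM without. The ranges were apart, and the log2 fold change was 1.25 (SE 0.299, edgeR adjusted p = 0.00995), the 1 member called of 24 tested (2.37% of all genes, 0.32% higher and 2.05% lower). Leaving out any one of 7 of the 8 libraries (all but DOX replicate 2) brought the count to 0. With LSD1 re-expressed in RCOR1/2 DKO ESCs edgeR called 0 members (0.332% of all genes, 0.172% higher and 0.16% lower), 2 reached an unadjusted p below 0.05 and DESeq2 called 0. DOX given to plain LSD1 KO ESCs gave 0 called members (0.0178% of all genes, each of them lower) by edgeR and 0 by DESeq2, with 2 at an unadjusted p below 0.05.

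MLL4 KO ESCs had higher levels of the A and B isoforms. In MLL4 KO ESCs 20 of 35 members were called higher and 0 lower than in WT ESCs, while 10.4% of all genes were called (3.55% higher, 6.89% lower). They were 16 of 22 gamma genes, 3 beta genes and 1 alpha gene. Alpha and beta members near 0 in WT ESCs could pass the filter on low counts only through groups where they are higher, so their calls carry no weight of their own, here and in MLL4KO/LSD1CI. The A and B isoforms of the gamma cluster had a median log2 fold change of 1.85 and the 3 C isoforms one of -0.28, against -0.02 over all genes. The gamma sum was 173 and 208 CPM in the 2 MLL4 KO libraries, above the highest WT ESC library (112 CPM).

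Pcdhga6 rose most among the gamma members. It stood at 4.36 and 4.70 CPM in MLL4 KO, against 0.145 to 0.9 CPM in the 11 WT libraries (log2 fold change 3.25, SE 0.519, edgeR adjusted p = 4.73e-06). Pcdhga5 stood at 6.19 and 6.37 CPM in MLL4 KO, against 0.504 to 2.50 CPM in WT, without overlap (log2 fold change 2.61, SE 0.329, edgeR adjusted p = 5.83e-08). Pcdhgc3 stood at 13.1 and 18.7 CPM in MLL4 KO, inside the range of the 11 WT libraries but above WT replicates 10 and 11, and its share of the gamma sum was 8.28%. WT replicates 10 and 11 stood apart in this respect: Pcdhgc3 made up 10.85% and 11.99% of their gamma sum, against 20.4 to 25.9% in the other 9 WT libraries. Their depth of 17.2e6 and 19.4e6 counts lay near that of the MLL4 libraries (17.3e6 to 22.1e6), against 36.1e6 to 58.2e6 in the other 9, and the part of depth in the low share was not tested. Pcdhgc4 and Pcdhgc5 in these 2 libraries lay inside the range of the other 9. Without them the members called were 19 in MLL4 KO, 25 in MLL4KO/LSD1CI and 7 in MLL4/LSD1 DKO, beside 20, 25 and 6 with them. Pcdhga8 (chosen after its values were seen) stood at 10.05 and 16.8 CPM in MLL4 KO, overlapping the WT range (log2 fold change 0.81, edgeR adjusted p = 0.00985), and Pcdhgb8 and Pcdhga12 were not called. Pcdhb20, Pcdha10, Pcdhb18 and Pcdhb22 were called at log2 fold changes between 2.92 and 5.35, yet none of these 4 exceeded 1.19 CPM, and for Pcdhb22 the ranges overlapped. Of the markers, 4 of 11 neuronal and 0 of 8 pluripotency genes were called higher in MLL4 KO, and 0 of either lower.

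MLL4KO/LSD1CI ESCs showed 23 members higher and 2 lower than WT ESCs (13.2% of all genes, 5.56% higher and 7.63% lower). The A and B isoforms had a median log2 fold change of 1.77, and the C isoforms one of -1.27. Pcdhga6 stood at 2.09, 2.34, 3.61 and 4.29 CPM in these 4 libraries, all above the WT range (log2 fold change 2.7, SE 0.451, edgeR adjusted p = 6.19e-06). The lower members were Pcdhgc4 and Pcdhgc5, at log2 fold changes of -1.28 and -1.27. Of the higher members 15 were gamma and 8 beta genes, the beta genes at log2 fold changes between 3.23 and 4.58, and their levels were low: Pcdhb2 stood at 0.862, 0.102, 0.546 and 0.335 CPM, against 0 to 0.06 CPM in WT, and Pcdhb22 at 1.11, 0.814, 0.328 and 1.67 CPM, against 0 to 0.436 CPM in WT. The ranges were apart for Pcdhb2 and overlapped for Pcdhb22. Set directly against MLL4 KO, edgeR called 0 members (0.142% of all genes, 0.131% higher and 0.0114% lower), 4 reached an unadjusted p below 0.05 and DESeq2 called 0.

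Where LSD1 was deleted together with MLL4, fewer members were called higher than WT. MLL4/LSD1 DKO ESCs had 4 members higher and 2 lower than WT ESCs (12.3% of all genes, 7.09% higher and 5.21% lower), the lower ones being Pcdhgc3 and Pcdhgc5. Against MLL4 KO directly, 0 members were higher and 8 lower (8.56% of all genes, 6.28% higher and 2.28% lower), with a gamma median of -1.03. Pcdhga6 stood at 0.862, 0.903, 1.35 and 0.997 CPM in MLL4/LSD1 DKO, against 4.36 and 4.70 CPM in MLL4 KO, with a wide gap between them (log2 fold change -2.15, SE 0.624, edgeR adjusted p = 0.00917). Pcdhgc3 stood at 3.68, 5.28, 7.11 and 6.48 CPM in MLL4/LSD1 DKO, against 13.1 and 18.7 CPM in MLL4 KO, again without overlap (log2 fold change -1.51, SE 0.236, edgeR adjusted p = 4.25e-06). This comparison leans on few libraries: without MLL4 KO replicate 1 or 2 the 8 calls became 3 or 2, and without DKO replicates 1, 2 or 4 they became 5, 4 or 5. Against WT, leaving out DKO replicate 3 left 3 of the 6 calls. The 3 MLL4 genotypes share their WT controls, and MLL4 KO is the comparator of the double mutants.

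**Figure D2:**
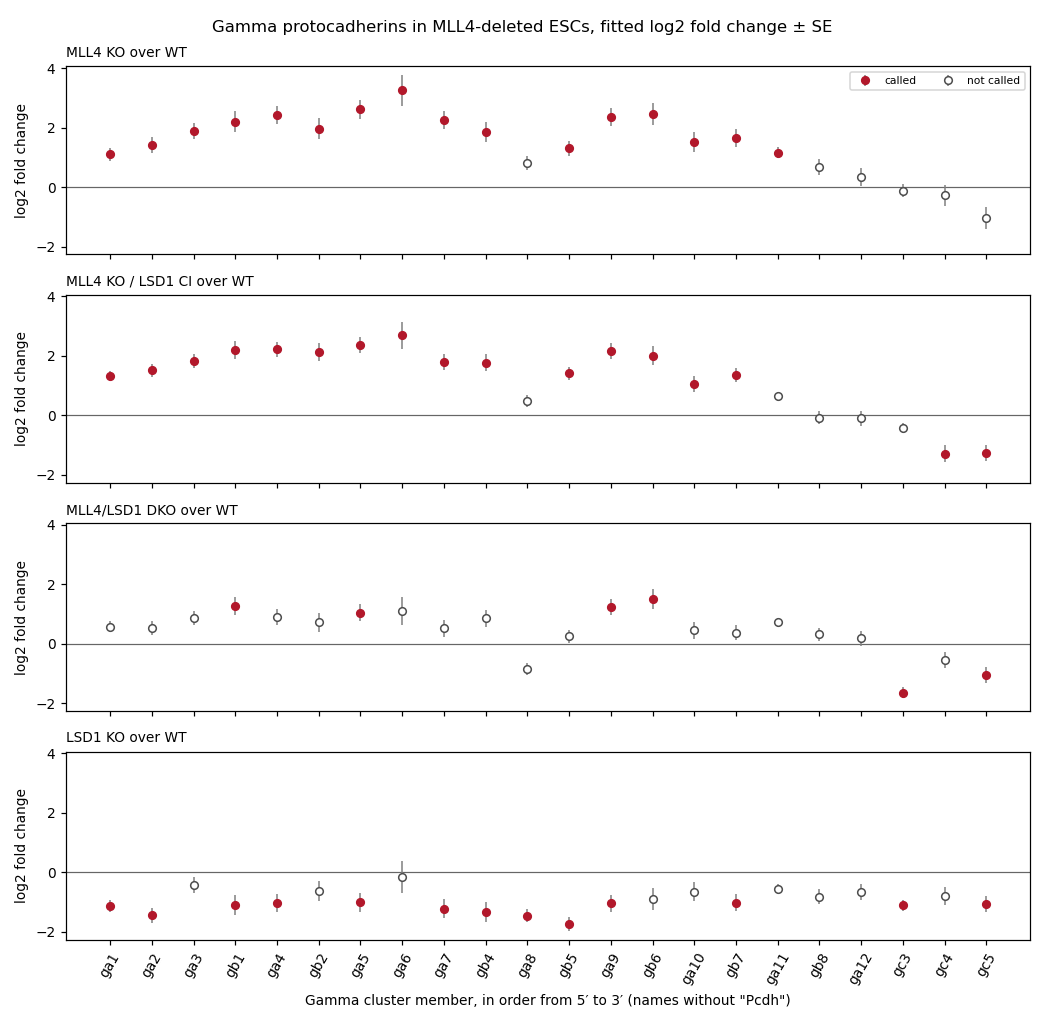
Log2 fold change over WT ESCs (points, with SE bars) of the 22 gamma members in genomic order for MLL4 KO, MLL4KO/LSD1CI, MLL4/LSD1 DKO and LSD1 KO ESCs; filled points were called. Most A and B isoforms lie above 0 in MLL4 KO and MLL4KO/LSD1CI (medians 1.85 and 1.77), less so in MLL4/LSD1 DKO (0.72), and all 22 members lie below 0 in LSD1 KO (median -1.03).

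In EBs, the CoREST double mutant gave the most calls. RCOR1/2 DKO EBs had 1 member higher and 22 lower than WT EBs of the 52 tested, while 26.4% of all genes were called (14.1% higher, 12.3% lower). The lower ones were 15 gamma, 4 beta and 3 alpha members. The gamma sum fell to 77.3 ± 7.0 CPM in RCOR1/2 DKO EBs (SD, n = 4), against 224 ± 54 CPM in WT EBs (SD, n = 7), and the highest DKO library (87.0 CPM) lay below the lowest WT library (152 CPM). The alpha sum was 1.05 ± 0.37 CPM in the DKO and 6.62 ± 2.89 CPM in WT.

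Pcdhgc3 led the drop in absolute terms. It stood at 7.35, 7.45, 8.25 and 10.4 CPM in RCOR1/2 DKO EBs, against 50.1 to 90.3 CPM in WT EBs (median 69.2). The DKO libraries were all below even the WT ESC median of 18.6 CPM (log2 fold change against WT EBs -3.01, SE 0.22, edgeR adjusted p = 4.58e-10). Pcdhac2 stood at 0.495, 0.0589, 0.158 and 0.308 CPM in the DKO, against 1.21 to 5.31 CPM in WT, again without overlap (log2 fold change -3.65, SE 0.587, edgeR adjusted p = 1.89e-05). Pcdhb22, the last of the beta genes, ranged from 0.154 to 0.631 CPM in the DKO, against 1.48 to 7.23 CPM in WT (log2 fold change -3.21, SE 0.47, edgeR adjusted p = 5.8e-06). The other gamma C isoforms fell as well, Pcdhgc4 to 0.660, 1.62, 0.841 and 1.98 CPM in the DKO, against 5.60 to 12.1 CPM in WT, and Pcdhgc5 to 1.05, 1.18, 0.999 and 1.16 CPM in the DKO, against 4.86 to 8.89 CPM in WT. Neither overlapped with WT. Pcdha2 was at 0 in all 4 DKO libraries and averaged 0.269 CPM in WT EBs (0 to 0.597 CPM), at least 13.2-fold lower when the DKO group is set to a floor of 3 counts in all. It could pass the filter on low counts only through other genotypes, so this drop carries no weight of its own.

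The exception stood at the other end of the gamma array. Pcdhga1 reached 8.58, 8.10, 9.20 and 10.2 CPM in RCOR1/2 DKO EBs, against 1.58 to 2.57 CPM in WT EBs, so that every DKO library was above every WT library (log2 fold change 2.13, SE 0.208, edgeR adjusted p = 2.31e-08). The first 5 gamma members in genomic order had a median log2 fold change of -0.20 and the 3 C isoforms one of -2.71. Across the 22 gamma members, Spearman's rho between genomic order and log2 fold change was -0.72, given as a description, since the members come from the same libraries and share introns.

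**Figure D3:**
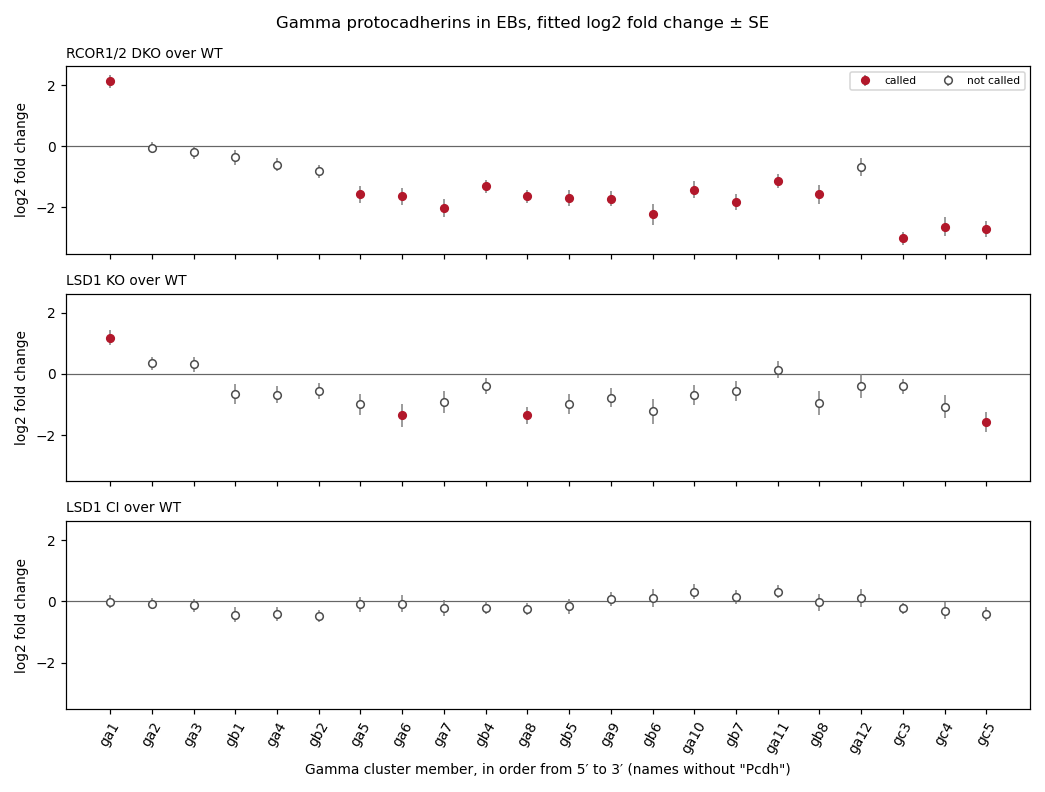
Log2 fold change over WT EBs (points, with SE bars) of the 22 gamma members in genomic order for RCOR1/2 DKO, LSD1 KO and LSD1 CI EBs; filled points were called. In the DKO, Pcdhga1 lies at 2.13, Pcdhgc3 at -3.01, and the 18 A and B members after Pcdhga1 between -0.04 and -2.23; the LSD1 CI points lie near 0 (median -0.12).

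These EBs also differed in their cell types. Of the marker lists, RCOR1/2 DKO EBs had 7 of 8 pluripotency, 9 of 12 neuronal and 5 of 9 neural progenitor markers higher than WT EBs, and 9 of 9 mesoderm and 7 of 7 endoderm markers lower. The summed pluripotency markers stood at 1090 to 1200 CPM in the DKO EBs, against 46.1 to 196 CPM in WT EBs, and below the 3420 to 4890 CPM of WT ESCs. The summed neuronal markers stood at 212 to 245 CPM in the DKO and 35.0 to 74.1 CPM in WT, the mesoderm markers at 9.69 to 11 CPM in the DKO and 142 to 905 CPM in WT, and the endoderm markers at 56.0 to 72.4 CPM in the DKO, with Ttr at 0, and 306 to 597 CPM in WT. The part of these cell types in the protocadherin levels was not tested. Of the regulators of promoter choice, Dnmt3a and Rest were called higher in the DKO EBs (log2 fold changes 2.05 and 1.17) and 0 were called lower, while 1 of 8 classical cadherins was higher and 5 lower, and 2 of 11 delta protocadherins were higher and 2 lower. Of all genes, 26.4% were called there. Taf7, a general transcription factor subunit whose gene lies between the beta and gamma clusters on the other strand, stood at 105 to 126 CPM in the DKO, against 31.9 to 47.3 CPM in WT (log2 fold change 1.67), opposite in direction to most members.

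LSD1 KO EBs gave fewer calls. Of 52 members, 2 were called higher and 3 lower than in WT EBs, a smaller share than that of all genes (13.7%, with 8.28% higher and 5.42% lower). The gamma median was -0.69 (all genes 0.02). Pcdhga1 stood at 5.35 and 4.30 CPM in LSD1 KO EBs, against 1.58 to 2.57 CPM in WT EBs (log2 fold change 1.19, SE 0.256, edgeR adjusted p = 0.00109). Pcdhb2 stood at 1.71 and 1.26 CPM in LSD1 KO, against 0.0988 to 0.633 CPM in WT, and was called higher (log2 fold change 2.39, adjusted p = 0.00327). Pcdhgc5 stood at 3.0 and 1.95 CPM in LSD1 KO, below the 4.86 to 8.89 CPM of WT. The lower members were Pcdhgc5, Pcdhga8 and Pcdhga6, at log2 fold changes of -1.58, -1.36 and -1.35. Pcdhgc3, at 52.7 and 52.6 CPM, lay inside the WT range and was not called (log2 fold change -0.40, adjusted p = 0.22). Leaving out one or the other LSD1 KO library left 1 member called. These EBs also carried more neuronal marker RNA (295 to 363 CPM, against 35.0 to 74.1 CPM in WT EBs), with 8 of 12 neuronal markers called higher and 7 of 7 endoderm markers lower, and the part of these cell types in the protocadherin levels was not tested.

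The other EB genotypes gave few calls. In LSD1 CI EBs edgeR called 0 members (2.54% of all genes, 0.993% higher and 1.55% lower), 7 reached an unadjusted p below 0.05 and DESeq2 called 1. LSD1 KO against LSD1 CI EBs gave, of 52 members, 1 higher, Pcdhga1, and 2 lower, Pcdhgc5 and Pcdhga8. This is a smaller share than that of all genes (11.4%, with 7.37% higher and 4.0% lower). Pcdhga1 stood at 5.35 and 4.30 CPM in LSD1 KO and at 1.48 to 3.40 CPM in LSD1 CI (log2 fold change 1.20, SE 0.287, edgeR adjusted p = 0.00347). Without LSD1 KO replicate 1 or 2 the 3 calls became 0, and without LSD1 CI replicate 3 or 4 they became 1. RCOR1 KO EBs had 0 members called by edgeR (0.00558% of all genes, as lower) and 0 by DESeq2, with 1 at an unadjusted p below 0.05. RCOR2 KO EBs, where Rcor2 RNA was only partly reduced, had 0 called by edgeR (5.28% of all genes, 2.18% higher and 3.1% lower) and 1 by DESeq2, with 11 at an unadjusted p below 0.05 and a gamma median of -0.43.

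Whether the response to a genotype differed between EBs and ESCs was tested directly with an interaction term. For LSD1 KO, 2 of 48 members had a higher log2 fold change in EBs and 0 a lower one, a smaller share than that of all genes called (14.8%, with 8.86% higher and 5.98% lower). The 2 were Pcdhga1, by 2.32 (SE 0.286, edgeR adjusted p = 1.62e-07), and Pcdhga2, by 1.77 (SE 0.385, edgeR adjusted p = 5.43e-04). Pcdhga1 was lower in LSD1 KO ESCs than in WT ESCs (2.84 to 3.94 CPM, against 4.76 to 10.2 CPM) and higher in LSD1 KO EBs than in WT EBs. Without LSD1 KO EB replicate 1 the count was 1. For RCOR1/2 DKO, 1 member had a higher and 12 a lower log2 fold change in EBs (19.7% of all genes, 10.1% higher and 9.58% lower), with Pcdhga1 at 2.47, Pcdhgc3 at -2.50 and Pcdhac2 at -4.90. In ESCs Pcdhac2 lay near the floor, at 0 to 0.354 CPM in WT and 0.3083 to 0.384 CPM in RCOR1/2 DKO. The ESC part of its value rests on few counts. Without RCOR1/2 DKO ESC replicate 3 this count was 8. Both interactions share their WT libraries.

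A second set of LSD1 KO EBs, grown with DMSO, gave 1 member higher and 9 lower of 44 than WT EBs with DMSO (18.8% of all genes, 11.7% higher and 7.13% lower). The lower ones included Pcdhb19 to Pcdhb22, and Pcdhga6, Pcdhga7 and Pcdhga8. Pcdhac2 stood at 0.819 and 0.404 CPM in LSD1 KO, against 5.40 and 3.85 CPM in WT (log2 fold change -2.90, SE 0.44, edgeR adjusted p = 0.000264). Pcdhga1 stood at 4.72 and 7.59 CPM in LSD1 KO, against 2.20 and 2.65 CPM in WT, and was called higher (log2 fold change 1.35, SE 0.3, edgeR adjusted p = 0.00356). Pcdha5 was at 0 in both LSD1 KO libraries and at 0.410 and 0.858 CPM in WT, at least 20.0-fold lower against a floor of 3 counts in the group. It could pass the filter on low counts only through WT EBs with DMSO, so this drop carries no weight of its own. Leaving out any one of the 4 libraries left 5 of the 10 calls. Cell type markers differed too: the summed neuronal markers stood at 283 and 301 CPM in these LSD1 KO EBs, against 39.7 and 40.8 CPM in WT EBs with DMSO, the pluripotency markers at 535 and 576 CPM in LSD1 KO, against 92.0 and 109 CPM in WT, and the endoderm markers at 48.0 and 57.8 CPM in LSD1 KO, against 476 and 491 CPM in WT. Called higher were 8 of 12 neuronal and 6 of 8 pluripotency markers, and called lower 7 of 7 endoderm and 7 of 9 mesoderm markers. Their part in the protocadherin levels was not tested.

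In FBS cells, LSD1 KO lowered the 3 gamma C isoforms. LSD1 KO FBS cells had 0 members higher and 9 lower of 28 than WT FBS cells (9.55% of all genes, 6.22% higher and 3.34% lower), among them Pcdhac2 and all 3 gamma C isoforms. Pcdhgc3 stood at 8.52 and 11.6 CPM in LSD1 KO FBS, against 24.2 and 39.9 CPM in WT FBS (log2 fold change -1.67, SE 0.252, edgeR adjusted p = 0.00215). Pcdha12 was at 0 in both LSD1 KO libraries and at 0.372 and 0.448 CPM in WT, at least 11-fold lower against a floor of 3 counts in the group. It could pass the filter on low counts only through groups where it is higher, so this drop carries no weight of its own. For Pcdhac2 the limit is much the same: 0 alpha members reached 10 counts in both LSD1 KO libraries. It passed the filter mainly through groups where it is higher, and its call carries no weight of its own either. The count without 1 library was 1 (LSD1 KO replicate 1), 4 (LSD1 KO replicate 2), 5 (WT replicate 1) or 2 (WT replicate 2). LSD1 CI FBS cells had 3 members lower and 0 higher (2.99% of all genes, 2.41% higher and 0.577% lower), Pcdhga9, Pcdhgb5 and Pcdhga8, and Pcdhgc3 stood there at 12.4 and 15.1 CPM (log2 fold change -1.23, adjusted p = 0.0146, not called). Without LSD1 CI replicate 2, or WT replicate 2, its count was 0. The LSD1 KO and LSD1 CI comparisons share the WT libraries, and the difference between them was not tested.

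In EpiLCs, LSD1 KO raised Pcdhga10 and lowered Pcdhac2, the only calls among 25 members, a share near that of all genes (9.49%, with 6.82% higher and 2.66% lower). The gamma C isoforms were not called, and their sum was 13.2 and 13.3 CPM in LSD1 KO EpiLCs, against 11.2 and 14.9 CPM in WT EpiLCs. Pcdhga10 stood at 1.77 and 1.84 CPM in LSD1 KO, against 0.362 and 0.461 CPM in WT (log2 fold change 2.15, SE 0.334, edgeR adjusted p = 0.000137). Pcdhac2 stood at 0 and 0.0943 CPM in LSD1 KO, against 0.576 and 0.951 CPM in WT (log2 fold change -3.79, SE 0.975, edgeR adjusted p = 0.00641). It could pass the filter on low counts only through groups where it is higher, so this call carries no weight of its own. The count was 4 without WT replicate 1 and 1 without any one of the other 3 libraries. In LSD1 CI EpiLCs edgeR called 0 members (2.15% of all genes, 1.61% higher and 0.538% lower), 7 reached an unadjusted p below 0.05 and DESeq2 called 0.

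A485 changed gamma members in all 4 cultures, upward in ESCs and EpiLCs and downward in EBs. In LSD1 KO ESCs 14 of 24 members, all gamma, were called higher and 0 lower with A485 than with DMSO (17.6% of all genes, 5.94% higher and 11.7% lower). The gamma sum was 154 and 158 CPM with A485, against 66.0 and 66.1 CPM with DMSO. Pcdhgb2 rose most, with 8.0 and 8.30 CPM under A485, against 1.6 and 1.45 CPM under DMSO (log2 fold change 2.41, SE 0.196, edgeR adjusted p = 3.42e-09). Pcdhgc3 stood at 33.2 and 33.7 CPM under A485, against 13.2 and 13.5 CPM under DMSO (log2 fold change 1.32, SE 0.094, edgeR adjusted p = 4.79e-10). The replicates of each treatment lay close together and far from those of the other. Pcdhgc4 and Pcdhgc5 were not called.

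In LSD1 KO EpiLCs, 16 of 25 members were called higher and 0 lower with A485 than with DMSO (17.6% of all genes, 7.43% higher and 10.2% lower), and the gamma sum was 149 and 153 CPM with A485, against 47.2 and 48.4 CPM with DMSO. Pcdhgc3 stood at 59.7 and 64.7 CPM with A485, against 11.1 and 11.6 CPM with DMSO, and made up 41.3% of the gamma sum with A485 (log2 fold change 2.45, SE 0.146, edgeR adjusted p = 4.35e-09). Pcdhga10 stood at 9.33 and 10.4 CPM with A485, against 1.77 and 1.84 CPM with DMSO (log2 fold change 2.44, SE 0.265, edgeR adjusted p = 1.53e-06). Fewer members were called without LSD1 KO DMSO replicate 1 (8), DMSO replicate 2 (7) or A485 replicate 2 (9). Of the regulators, Dnmt3a and Dnmt3b were lower with A485, by log2 fold changes of -1.81 and -2.60. They are examples from that list, whose count of calls in this comparison is not given here.

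In LSD1 KO FBS cells, 7 of 28 members were called higher and 1 lower with A485 than with DMSO (12.5% of all genes, 3.52% higher and 9.0% lower). Among the higher ones were all 3 C isoforms, with Pcdhgc3 at 56.9 and 58.2 CPM under A485, against 8.52 and 11.6 CPM under DMSO (log2 fold change 2.51, SE 0.256, edgeR adjusted p = 0.000203). The lower one was Pcdhga1, at 3.05 and 3.26 CPM under A485, against 7.18 and 9.83 CPM under DMSO (log2 fold change -1.44, SE 0.252, edgeR adjusted p = 0.000754). Pcdhgc5 stood at 2.87 and 3.71 CPM under A485, against 0.629 and 0.825 CPM under DMSO, and Pcdhgc4 at 3.17 and 4.17 CPM under A485, against 0.745 and 0.851 CPM under DMSO. Spearman's rho between genomic order and log2 fold change was 0.79 over 22 gamma members of the same libraries. Leaving out LSD1 KO DMSO replicate 1, or either A485 library, left 5 of the 8 calls.

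In LSD1 KO EBs the direction was the opposite. With A485, 0 of 44 members were called higher and 16 lower than with DMSO (13.8% of all genes, 4.26% higher and 9.54% lower). The gamma sum was 50.1 and 50.7 CPM with A485, against 153 and 174 CPM with DMSO. Pcdhgc3 stood at 6.31 and 8.17 CPM with A485, against 59.4 and 64.4 CPM with DMSO (log2 fold change -3.05, SE 0.154, edgeR adjusted p = 1.22e-07). Its share of the gamma sum was 14.4% with A485 and 38.2% with DMSO. Pcdhgc5 stood at 0.323 and 0.231 CPM with A485, against 2.68 and 2.67 CPM with DMSO, and fell by 3.23 on the log2 scale (SE 0.408, edgeR adjusted p = 9.22e-05), and Pcdhgc4 fell by 2.78. Pcdhga11 stood at 2.91 and 3.69 CPM with A485, against 14.2 and 15.0 CPM with DMSO (log2 fold change -2.09, SE 0.204, edgeR adjusted p = 1.2e-05). None of these ranges overlapped. Pcdhga1 stood at 5.69 and 7.68 CPM with A485, against 4.72 and 7.59 CPM with DMSO, and was not called, and rho between genomic order and log2 fold change was -0.80 over the 22 gamma members. Without LSD1 KO DMSO replicate 1 the count was 6.

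In EBs 14 members were called lower with A485 that were called higher in at least 1 of the other cultures, and 4 of these (Pcdhgc3, Pcdhga10, Pcdhgb4 and Pcdhgb7) were higher in all 3. The concentration and the schedule of treatment differed between EBs and ESCs. Each culture was fitted separately, and the difference between cultures was not tested. Cell types moved as well: in EBs the summed pluripotency markers stood at 1320 and 1340 CPM with A485, against 535 and 576 CPM with DMSO, the neuronal markers at 101 and 104 CPM with A485, against 283 and 301 CPM with DMSO, and the mesoderm markers at 12.2 and 12.3 CPM with A485, against 277 and 329 CPM with DMSO. In ESCs 6 of 8 pluripotency markers were called lower with A485. Their part in the protocadherin levels was not tested. The delta protocadherins gave 0 higher and 6 lower of 11 in EBs, where 13.8% of all genes were called (4.26% higher, 9.54% lower). In FBS cells they gave 0 higher and 5 lower of 11, where 12.5% of all genes were called (3.52% higher, 9.0% lower). Their counts in ESCs and EpiLCs are not given here.

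**Figure D4:**
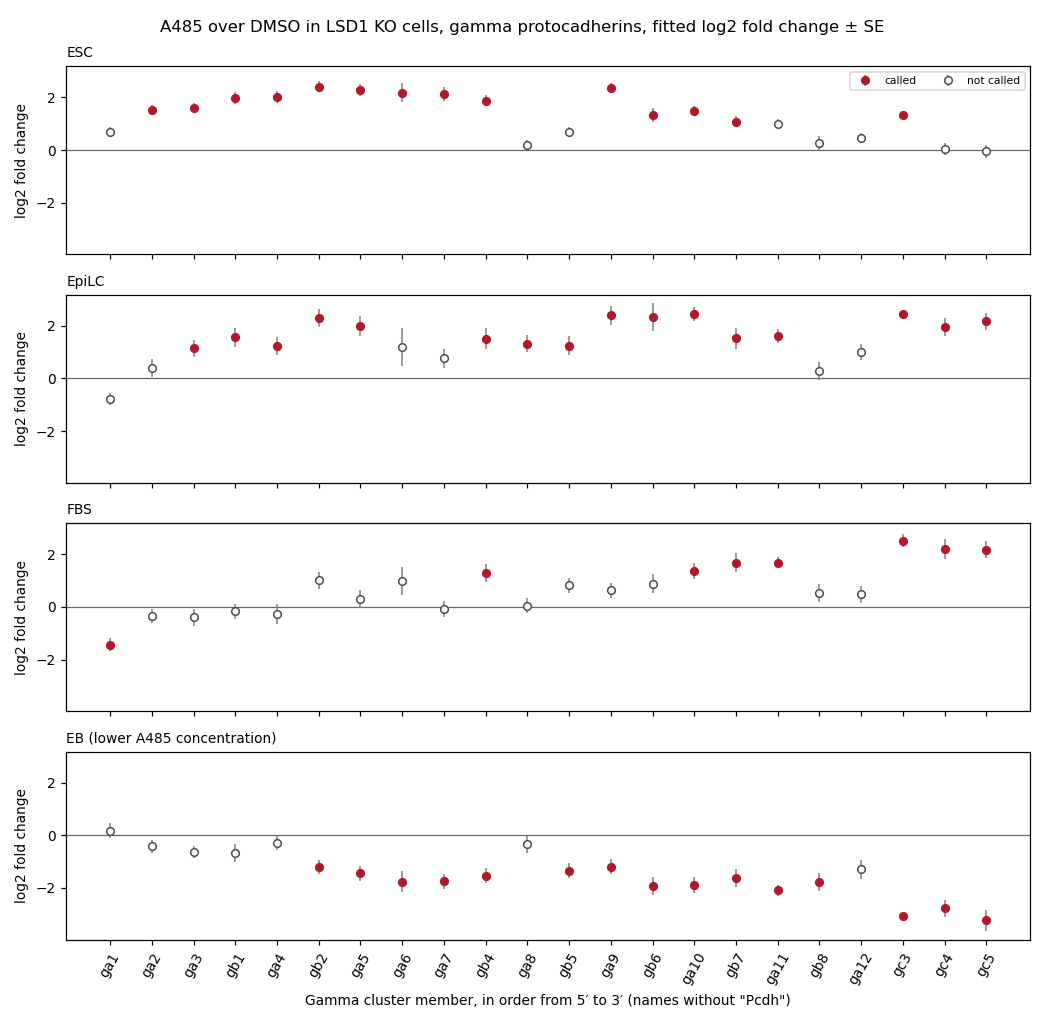
Log2 fold change of A485 over DMSO (points, with SE bars) in LSD1 KO cells for the 22 gamma members in genomic order, one panel each for ESCs, EpiLCs, FBS cells and EBs; filled points were called. Medians are 1.40 in ESCs, 1.51 in EpiLCs and 0.71 in FBS cells, against -1.48 in EBs, and Pcdhgc3 lies at 1.32, 2.45, 2.51 and -3.05.

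Across all 34 groups, Pcdhgc3 covered the widest span in CPM of the members. Its highest levels were in WT EBs with DMSO (81.3 and 83.6 CPM), WT EBs (50.1 to 90.3 CPM) and RCOR1 KO EBs (56.0 to 83.4 CPM). Overlapping or close to these lay LSD1 CI EBs (44.8, 45.6, 59.4 and 86.8 CPM), RCOR2 KO EBs (40.4 and 66.0 CPM), both sets of LSD1 KO EBs, and A485-treated EpiLCs and FBS cells. It was low in MLL4/LSD1 DKO ESCs, RCOR1/2 DKO EBs and A485-treated EBs, whose ranges of 3.68 to 7.11, 7.35 to 10.4 and 6.31 to 8.17 CPM lay close to each other or overlapped.

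**Figure D5:**
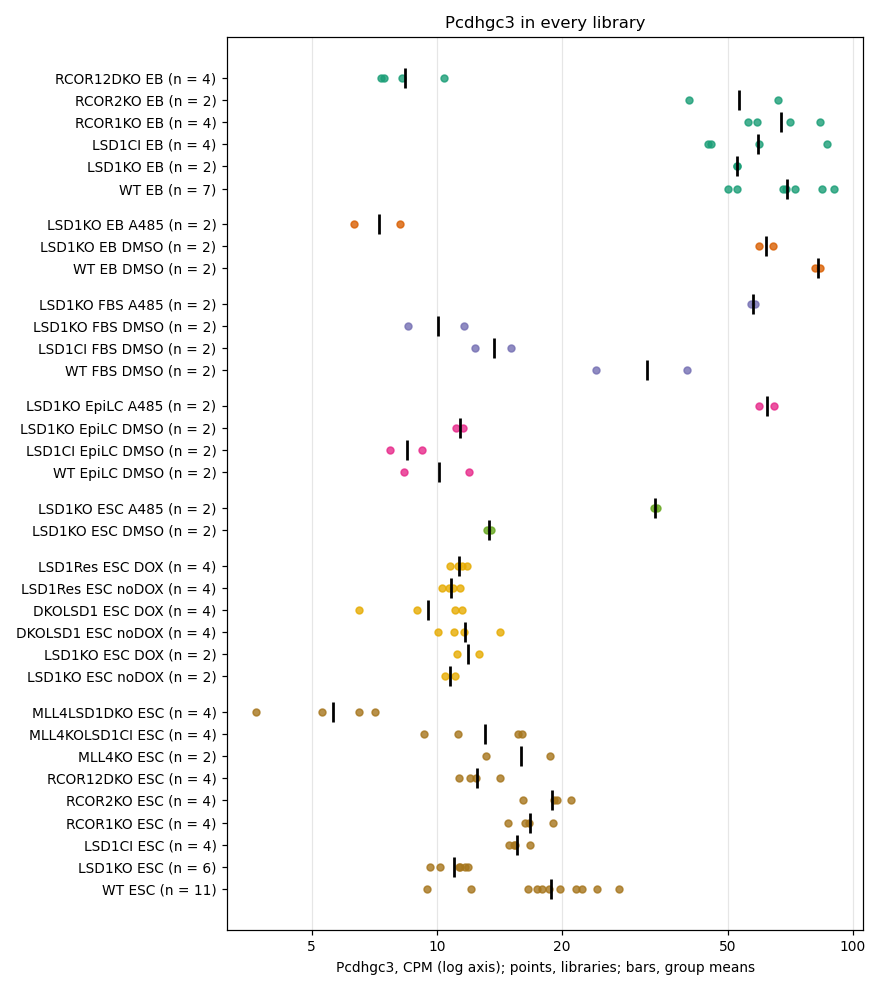
Level of Pcdhgc3 in every library of the 34 groups, in CPM on a log axis, with points for libraries and dashes for group means. WT EBs (50.1 to 90.3 CPM) lie above WT ESCs (9.47 to 27.5 CPM), and RCOR1/2 DKO EBs (7.35 to 10.4 CPM) and A485-treated LSD1 KO EBs (6.31 and 8.17 CPM) lie below both EB controls.

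Of 32 tested neighbours within 500 kb or between the clusters, 0 were higher and 2 lower in LSD1 KO ESCs than in WT ESCs, where 13.3% of all genes were called. In MLL4 KO ESCs 2 were higher and 3 lower (10.4% of all genes), in RCOR1/2 DKO EBs 4 were higher and 1 lower than in WT EBs (26.4% of all genes), and in WT EBs 5 were higher and 4 lower than in WT ESCs (35.5% of all genes). With A485, 2 were higher and 2 lower of 30 in LSD1 KO ESCs (17.6% of all genes), 3 higher and 1 lower in EpiLCs (17.6%), 2 higher and 1 lower in FBS cells (12.5%), and 0 higher and 1 lower of 31 in EBs (13.8%). Taf7 stood at 31.9 to 47.3 CPM in WT EBs, against 102 to 147 CPM in WT ESCs (log2 fold change -1.56, SE 0.085, edgeR adjusted p = 5.24e-13), again opposite to most members. Among the regulators of promoter choice, 0 of 25 were called by edgeR in LSD1 KO ESCs and 1 in MLL4 KO ESCs, where Dnmt3b was lower (log2 fold change -1.86).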

How the data were processed

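Per the labels and the study's methods, total RNA was depleted of rRNA, made into directional libraries and sequenced as paired ends. The authors aligned reads with STAR 2.7.9a to mm9, removed duplicates with Picard 2.25.5, counted with strand in featureCounts and deposited raw counts per gene, 1 file for each of 112 libraries. Between 72.2% and 84.7% of counts from 2 to 39 were even, so that both mates appear to have been counted and counts overstate the number of fragments. Rn45s took 8.1 to 24.9% of counts, and 0 per-sample columns belonged to other series.

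Counts were fitted with edgeR 4.0.16 (limma 3.58.1, R 4.3.3; tables with Python 3.11.15, pandas 2.3.3 and numpy 2.4.6, plots with matplotlib 3.10.9): TMM scaling, filterByExpr by group (minimum count 10, total 15) and a robust quasi-likelihood F test, with p-values adjusted over all genes tested. SE is the absolute log2 fold change over the square root of F. CPM are TMM-scaled over all 112 libraries. In all, 34 comparisons were made, and 500 kb on each side of the clusters was taken as neighbourhood. The alignment term separates 9 libraries from 103. Groups came from the labels. The members and gene lists were chosen with earlier results of these data known. The text names the 5 C-type members, up to 8 called members each way with the largest fold change, the 3 leading WT members per cluster and up to 4 called genes of other lists. Same-numbered libraries deviated together in the LSD1Res line (4 pairs, correlations 0.403 to 0.477) and in RCOR1/2 DKO cells with LSD1 (0.355 to 0.457), where each pair exceeded 0.1; the labels do not give the reason, and the replicate block changed no call there. Scripts were tested on simulated data with 200 changed genes. Alternatives were DESeq2 1.42.0, its size factors in edgeR, no filter on low counts, halved counts, no alignment term, only WT libraries of the same alignment, compared groups only, the replicate block, and each library of groups of 2 to 5 left out; leaving out 2 WT ESC libraries with low Pcdhgc3 was added after seeing the data.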

Additional observations from a re-analysis of the deposited data

Results flagged for a closer look

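Among 101 sets of 4 to 10 libraries checked (Pcdhac2, the 3 gamma C isoforms and the cluster sums, by group, where a library reached 10 counts), 5 held a library far from the others, where chance gives about 1 in 20. LSD1 CI EB replicate 4 had a gamma sum of 309.5 CPM, against 166 to 178 CPM in the other 3, and Pcdhgc5 at 9.789 CPM, against 3.71 to 4.72 CPM. RCOR1/2 DKO ESC replicate 3 had the lowest Pcdhac2 of its group, at 0.3083 CPM, against 0.372 to 0.384 CPM. RCOR1 KO EB replicate 3 had the highest Pcdhgc5, at 7.201 CPM, against 6.22 to 6.23 CPM. MLL4KO/LSD1CI ESC replicate 2 had the lowest Pcdhgc4, at 0.6105 CPM, against 1.6 to 1.67 CPM.

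The response to a genotype differed between EBs and ESCs for 15 results, by the interaction term (edgeR adjusted p below 0.01). For LSD1 KO these were Pcdhga1 (2.32) and Pcdhga2 (1.77), given as log2 fold change in EBs minus that in ESCs. For RCOR1/2 DKO they were Pcdhga1 at 2.47 and, below 0, Pcdhac2 at -4.90, Pcdhb22 at -3.44, Pcdhgc3 at -2.50, Pcdhga10 at -2.12, Pcdhgb6 at -2.08, Pcdhgc5 at -1.93, Pcdhga9 at -1.76, Pcdhgb7 at -1.69, Pcdhgc4 at -1.62, Pcdhga7 at -1.6, Pcdhga5 at -1.53 and Pcdhga11 at -1.03. Pcdhac2 and Pcdhb22 lay near the floor in ESCs, so the ESC part of their values rests on few counts.

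The response to A485 in LSD1 KO EBs was opposite to that in at least 1 other culture for 14 members, and this difference was not tested. Their log2 fold changes in EBs were -3.23 for Pcdhgc5, -3.05 for Pcdhgc3, -2.78 for Pcdhgc4, -2.09 for Pcdhga11, -1.93 for Pcdhgb6, -1.88 for Pcdhga10, -1.77 for Pcdhga6, -1.75 for Pcdhga7, -1.62 for Pcdhgb7, -1.53 for Pcdhgb4, -1.44 for Pcdhga5, -1.35 for Pcdhgb5, -1.21 for Pcdhgb2 and -1.19 for Pcdhga9, against called increases between 1.08 and 2.51 in the other cultures.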

How the results depend on the processing

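Of 364 values of the counts of called members under other settings, 284 stayed within 1.5 times the reported count; the others follow, the reported count second, and the cause was not tested. With the replicate number as a block, the counts were 1 against 3 (LSD1 KO over LSD1 CI ESCs), 1 against 0 (RCOR2 KO ESCs), 1 against 4 (RCOR1/2 DKO ESCs), 3 against 6 (MLL4/LSD1 DKO), 14 against 25 (MLL4KO/LSD1CI), 3 against 5 (LSD1 KO EBs), 1 against 3 (LSD1 KO over LSD1 CI EBs), 2 against 8 (WT FBS), 2 against 12 (WT EpiLCs), 6 against 13 (RCOR1/2 DKO, EBs minus ESCs) and 7 against 3 (LSD1 CI FBS), but outside the DOX lines equal numbers do not pair the libraries. Under this block, log2 fold changes of C-type members that were not called changed sign: Pcdhac2 to -1.02 (LSD1 CI ESCs), -0.37 (RCOR1 KO ESCs) and -0.85 (MLL4KO/LSD1CI), Pcdhac1 to 0.77 (WT EpiLCs) and -3.07 (RCOR1/2 DKO, EBs minus ESCs), Pcdhgc3 to -0.06 (RCOR2 KO ESCs), 0.01 (LSD1 KO over LSD1 CI EBs) and 0.02 (RCOR1 KO EBs), Pcdhgc4 to 0.21 (MLL4 KO), 0.10 (RCOR1 KO EBs), 0.43 (WT FBS) and 0.03 (LSD1 KO, EBs minus ESCs), and Pcdhgc5 to -0.08 (MLL4/LSD1 DKO over MLL4 KO).

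Without the alignment term MLL4/LSD1 DKO had 2 calls against 6, and signs changed for Pcdhac2 in LSD1 KO ESCs over WT (-0.11) and over LSD1 CI (-0.27), Pcdhgc3 in RCOR2 KO ESCs (-0.03), Pcdhgc5 in WT FBS (0.03) and Pcdhgc4 in LSD1 KO, EBs minus ESCs (0.07). With the compared groups only, the counts were 8 against 13 (LSD1 KO ESCs), 2 against 4 (RCOR1/2 DKO ESCs), 3 against 6 (MLL4/LSD1 DKO), 3 against 5 (LSD1 KO EBs), 0 against 3 (LSD1 KO over LSD1 CI EBs), 5 against 8 (WT FBS), 7 against 12 (WT EpiLCs), 0 against 3 (LSD1 CI FBS) and 0 against 1 (LSD1Res), and LSD1 KO over LSD1 CI ESCs could not be fitted. DESeq2 gave 1 against 0 (RCOR1 KO ESCs, LSD1 CI EBs and RCOR2 KO EBs), 9 against 5 (LSD1 KO EBs), 5 against 3 (LSD1 KO over LSD1 CI EBs) and 7 against 3 (LSD1 CI FBS), and Pcdhac1 changed sign (-0.21) in RCOR1/2 DKO, EBs minus ESCs. DESeq2 size factors in edgeR gave 8 against 13 in LSD1 KO ESCs, and 1 higher and 1 lower call in LSD1 KO over LSD1 CI EBs, against 1 and 2. The median of all genes moved to 0.118 with DESeq2 in LSD1 KO over WT ESCs and to 0.113 with its size factors in LSD1 KO over LSD1 CI ESCs. Without a filter on low counts, the counts were 6 against 3 (LSD1 CI FBS), 5 against 2 (LSD1 KO EpiLCs) and 1 against 0 (LSD1 CI EpiLCs). Without WT ESC replicates 10 and 11, a choice made after seeing the data, they were 1 against 0 (RCOR2 KO ESCs) and 1 against 4 (RCOR1/2 DKO ESCs).

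With each library left out in turn, the counts ran from 3 to 7 (MLL4/LSD1 DKO), 2 to 8 (MLL4/LSD1 DKO over MLL4 KO), 1 to 1 (LSD1 KO EBs), 0 to 3 (LSD1 KO over LSD1 CI EBs), 1 to 4 (WT FBS), 4 to 6 (WT EpiLCs), 1 to 2 and 8 to 14 (LSD1 KO and RCOR1/2 DKO, EBs minus ESCs), 5 to 5 (LSD1 KO EBs with DMSO), 1 to 5 (LSD1 KO FBS), 0 to 2 (LSD1 CI FBS), 1 to 4 (LSD1 KO EpiLCs), 0 to 1 (LSD1 CI EpiLCs, 1 without WT replicate 1) and 0 to 1 (LSD1Res). For A485 they ran from 6 to 14 (EBs), 5 to 6 (FBS) and 7 to 11 (EpiLCs). In groups of 2, the single library left was taken to vary like the others. Depth limits the alpha and beta members, of which 0 reached 10 counts in every WT ESC library, and the 2-library groups limit the A485, FBS and EpiLC comparisons.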
